A study of Mus musculus with 12 samples.

Results

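The 10 genes described here encode nuclear subunits of cytochrome c oxidase that exist as tissue isoforms, together with the supercomplex factor Cox7a2l. They are Cox4i1, Cox4i2, Cox6a1, Cox6a2, Cox6b1, Cox6b2, Cox7a1, Cox7a2, Cox7a2l and Cox8a, and they are 10 of the 37583 gene identifiers in the deposited count tables. They were picked by symbol for a comparison of muscle or other tissue isoforms with the common isoforms between Taz knockout and wild-type clones, with earlier results of this contrast known. Differences between the genotypes are therefore given for them as a description, with standard errors and without p-values. Every one of the 10 identifiers was found, and 9 passed the filter on low counts. Cox4i2 did not.

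The study compared 6 knockout (KO) clones lacking Tafazzin, titled 3G, 3H, 3I, 4J, 4K and 4L, with 6 wild-type (WT) clones titled 1A, 1B, 1C, 2D, 2E and 2F. Tafazzin (Taz) is the X-linked acyltransferase that remodels cardiolipin, a phospholipid of the inner mitochondrial membrane. All 12 clones were grown from single cells of granulocyte-monocyte progenitor lines from C57BL/6 fetal liver at embryonic day 15.5. KO and WT clones alike carried a retroviral ER-Hoxb8, a fusion that holds progenitors immature while estradiol is present, and the medium of all held 0.5 µM estradiol and about 50 ng/ml of stem cell factor. The knockout allele is not described in the labels. What the number in a title stands for is not given, so clones that share one may share an embryo or a parent line, and p-values over clones may then be too small. RNA was sequenced from each clone, and reads per gene were counted.

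Cytochrome c oxidase, complex IV of the respiratory chain, passes electrons from cytochrome c to oxygen and pumps protons across the inner mitochondrial membrane. Its catalytic core is encoded by mitochondrial DNA and is surrounded by small nuclear-encoded subunits, several of which come as a common form and a form restricted to certain tissues. Heart and skeletal muscle are known for COX6A2, COX7A1 and, in rodents, COX8B, testis for COX6B2, and lung and cells at low oxygen for COX4I2. Cardiolipin is bound by the assembled enzyme. The mitochondrially encoded subunits were not analysed here.

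The upstream sequences below set the common isoform genes Cox6b1 and Cox7a2 beside their tissue forms Cox6b2 and Cox7a1, add Cox6a1, the common partner of Cox6a2, and show how much they differ in CpG content. Each is the 250 bases before the annotated start, from RefSeq on build GRCm38.p6, written 5′ to 3′ on the gene's strand, with CpG dinucleotides in capitals. Positions are chr5:115348959-115349208, minus strand, for Cox6a1, chr7:30626115-30626364, minus, for Cox6b1, chr9:79759854-79760103, minus, for Cox7a2, chr7:4753095-4753344, minus, for Cox6b2 and chr7:30183921-30184170, plus, for Cox7a1.
Cox6a1: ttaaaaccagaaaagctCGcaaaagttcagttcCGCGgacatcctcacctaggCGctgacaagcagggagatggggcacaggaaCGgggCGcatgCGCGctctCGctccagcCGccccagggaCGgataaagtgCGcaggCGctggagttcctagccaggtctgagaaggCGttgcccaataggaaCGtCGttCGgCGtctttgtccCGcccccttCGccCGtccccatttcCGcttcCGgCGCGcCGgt
Cox6b1: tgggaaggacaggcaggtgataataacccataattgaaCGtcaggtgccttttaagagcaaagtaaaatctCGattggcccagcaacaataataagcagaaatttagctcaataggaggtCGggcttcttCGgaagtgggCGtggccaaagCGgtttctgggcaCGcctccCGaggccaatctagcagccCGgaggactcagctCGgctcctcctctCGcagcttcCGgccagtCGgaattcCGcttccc
Cox7a2: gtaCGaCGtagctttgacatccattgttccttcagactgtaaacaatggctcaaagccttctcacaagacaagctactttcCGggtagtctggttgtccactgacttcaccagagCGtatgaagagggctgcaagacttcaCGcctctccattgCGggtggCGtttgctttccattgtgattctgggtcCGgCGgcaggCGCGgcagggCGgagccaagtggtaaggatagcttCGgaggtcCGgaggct
Cox6b2: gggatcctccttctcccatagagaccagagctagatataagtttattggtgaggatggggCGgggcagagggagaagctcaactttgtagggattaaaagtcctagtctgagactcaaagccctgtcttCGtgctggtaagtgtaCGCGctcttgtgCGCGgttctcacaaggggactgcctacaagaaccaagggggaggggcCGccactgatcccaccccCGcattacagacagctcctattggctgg
Cox7a1: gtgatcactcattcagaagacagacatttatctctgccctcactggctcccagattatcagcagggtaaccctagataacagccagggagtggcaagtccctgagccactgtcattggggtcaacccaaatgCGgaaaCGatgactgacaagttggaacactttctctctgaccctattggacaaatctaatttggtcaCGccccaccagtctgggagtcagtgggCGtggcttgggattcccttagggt
The common isoform genes Cox6a1, Cox6b1 and Cox7a2 had 26, 14 and 14 CpG in this window, against 8 in Cox6b2 and 4 in Cox7a1. The median over the 32851 promoters of the table was 6. Cox7a2l had 13 and Cox8a 11, so these 7 genes are those with an entry. These windows were searched on both strands for 3 motifs, chosen after the expression values were known. GCGCATG, a core of NRF1 sites, was in the window of Cox6a1 alone among the 7 genes and in 3.24% of all promoters. CTTCCGG, a core of ETS-family sites, was in those of Cox6a1 and Cox6b1 and in 6.91% of all promoters. TGATGNAA, a core of ATF4 sites, was in none of the 7 windows and in 3.45% of all promoters. Cox6a2, Cox4i1 and Cox4i2 had no promoter entry, so they were not searched for any of these motifs.

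The libraries held 18970252 to 23658158 counts in KO clones and 21966954 to 27431544 in WT clones. Values are CPM, that is counts scaled to the size of a clone's library, and a reading of 0 was kept as 0 in means and shares. A limit of 3 counts, set beside low readings, stood for 0.127 to 0.158 CPM in KO and 0.109 to 0.137 CPM in WT clones. Taz itself averaged 3.35 CPM ± 0.685 in KO and 39.2 CPM ± 2.58 in WT clones (SD, n = 6 each), without overlap. Markers of the labelled progenitor were abundant, and 10 of 10, among them Mpo and Elane, were tested. Of these, 0 were called, beside 7.94% of all tested genes. Their summed level was 12088 to 20187 CPM in KO and 13116 to 22452 CPM in WT clones. B-lineage markers summed to 6.03 to 28.5 CPM in KO and 32.8 to 85.4 CPM in WT clones, without overlap. Of 5 tested, 2 were called, Cd79b and Igll1, both lower. The part of the B-lineage markers in the results was not tested. KO clone 3G stood apart for markers of 2 other tissues. Its hepatocyte markers summed to 169.6 CPM, against 7.69 to 22.6 CPM in the other KO clones, and its muscle markers to 37.2 CPM, against 13.96 to 20.5 CPM. Results that lean on clone 3G are given with and without it.

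Cox6a2, the form of subunit 6a found in heart and skeletal muscle, at the dimer interface of the complex, was the member with the widest gap between the genotypes. Its raw counts were 671, 596, 764, 755, 510 and 441 in KO clones, in the order 3G, 3H, 3I, 4J, 4K, 4L, against 43, 47, 17, 85, 56 and 70 in WT clones, in the order 1A, 1B, 1C, 2D, 2E, 2F. The lowest KO clone, 4L, had 441 counts (exact 95% Poisson interval 401 to 484) and the highest WT clone, 2D, had 85 (67.9 to 105), so the groups did not overlap, and WT clones were still above the 3-count limit. Scaled to library size, Cox6a2 had a lowest, median and highest level of 22.2, 31.2 and 35.3 CPM in KO clones, against 0.776, 1.89 and 3.68 CPM in WT clones. The means were 29.4 CPM ± 5.19 in KO and 2.13 CPM ± 1.03 in WT clones (SD, n = 6 each), a log2 fold change of 3.78 (SE 0.31). By title number, the mean of KO clones 3 was 23.7-fold that of WT clones 1 and 11.3-fold that of WT clones 2. The mean of KO clones 4 was 18.9-fold that of WT clones 1 and 9.03-fold that of WT clones 2. The gap was thus present for each pairing of numbers, and its size moved mostly with the WT number.

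**Figure D1:**
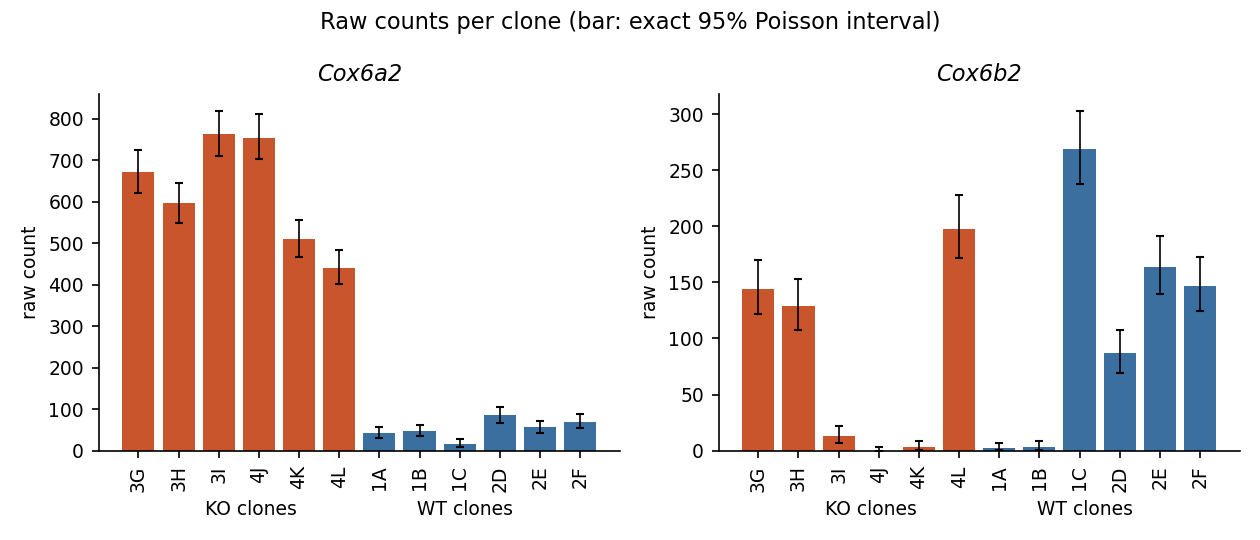
Raw counts per clone (vertical axes, different scales) of Cox6a2 and Cox6b2, with KO clones left and WT clones right and exact 95% Poisson intervals as bars. The 6 KO clones have 441 to 764 Cox6a2 counts and the 6 WT clones 17 to 85, whereas Cox6b2 is high and low within each genotype.

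Cox6a1, the common isoform of the same subunit, showed no such gap. It had a lowest, median and highest level of 157.9, 167.1 and 178.6 CPM in KO clones, against 167.2, 176.8 and 182.0 CPM in WT clones. These ranges overlap, and the means of 168.0 CPM ± 9.06 in KO and 176.5 CPM ± 5.47 in WT clones gave a log2 fold change of -0.07 (SE 0.04). Divided by exon length, Cox6a2 made up 15.3% ± 2.55 of the summed Cox6a1 and Cox6a2 level in KO clones and 1.23% ± 0.583 in WT clones (SD, n = 6 each). The lowest KO share was 11.4%, in clone 4L, and the highest WT share was 2.12%, in clone 2D. The common isoform thus remained the larger part of the pair in each of the 12 clones. The summed level was 282.5 CPM per kb ± 13.5 in KO and 254.5 CPM per kb ± 8.09 in WT clones, and the ranges, 260.1 to 301.5 in KO and 241.2 to 262.9 in WT, overlap. Over aligned coding bases the 2 transcripts are 66.6% identical, and no stretch of 50 bases is shared between them. The isoforms can therefore be counted apart from each other. Of the 50-base stretches of Cox6a1, 9.16% also occur in the pseudogene AC148174.2, so part of the Cox6a1 reads may have gone uncounted. The share of Cox6a2 may then be somewhat too high in both genotypes.

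On chromosome 7 Cox6a2 lies within the span of Itgad, an integrin gene on the opposite strand, and the reads were counted without strand. Of 631 stretches of 50 bases in Cox6a2 transcripts, 21 (3.33%) also occur in an Itgad transcript. Itgad had 1.72 CPM ± 0.465 in KO and 0.998 CPM ± 0.369 in WT clones. That was far less than Cox6a2 in KO clones, but in WT clones Cox6a2 itself averaged only 2.13 CPM. In WT clone 1C Itgad, at 0.867 CPM, was above Cox6a2, at 0.776 CPM. Whether reads from Itgad entered the Cox6a2 counts was not tested. The log2 fold change of Itgad was 0.78 (SE 0.27), which edgeR's quasi-likelihood test did not call (Benjamini-Hochberg adjusted p = 0.0979). Among the 4 nearest protein-coding genes on each side of Cox6a2, Itgad included, 5 were tested. Of these, 0 were called, beside 7.94% of all tested genes, and 5 genes are too few to set against that share. Itgax, an integrin of myeloid cells, had a log2 fold change of 0.67 (SE 0.42), Itgam, another of them, -0.40 (SE 0.23), 9130023H24Rik 0.35 (SE 0.10) and Armc5 -0.02 (SE 0.05). Their adjusted p-values by the same edgeR test were 0.376, 0.318, 0.0552 and 0.859. Leaving out WT or KO clones one at a time, 9130023H24Rik was called in 1 of 12 such fits, without 3H, and DESeq2 called it too (adjusted p = 0.0119). The values of Trim72, Tgfb1i1 and Slc5a2 were below the filter, with means of at most 0.327 CPM in KO and 0.253 CPM in WT clones.

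Within the WT clones Cox6a2 spread more than in KO clones. The SD of its log2 CPM was 0.27 in KO and 0.74 in WT clones, at far lower counts in WT. Clones titled 2 averaged 2.88 CPM and clones titled 1 averaged 1.38 CPM, and each clone of number 2 lay above each clone of number 1. Itgad, on the opposite strand, was split the same way. Its levels were 1.21, 1.14 and 1.54 CPM in 2D, 2E and 2F, against 0.536, 0.691 and 0.867 CPM in 1A, 1B and 1C. Whether these splits are linked was not tested. The contrast of WT title numbers for Cox6a2 does not involve the knockout. It had a log2 fold change of 1.05 (SE 0.30) and an unadjusted p of 0.00565 in edgeR, which did not survive adjustment over all 11819 genes (adjusted p = 0.9999; DESeq2 adjusted p = 0.205). In KO clones, numbers 4 and 3 averaged 26.0 and 32.7 CPM, a log2 fold change of -0.33 (SE 0.27, edgeR adjusted p = 0.9999). None of the 9 tested members was called in either contrast of title numbers (0 of 11819 genes, 0%, called in each by edgeR). At an unadjusted p under 0.05, the members' counts were 0 of 9 in KO and 1 of 9, Cox6a2, in WT clones, where 2.06% and 3.52% of all genes passed. DESeq2 called 3 genes over all in KO and 4 in WT clones, with 0 members among them.

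Cox6b2, the testis isoform of a subunit on the cytochrome c side of the complex, was well counted in some clones of each genotype and near 0 in others. Its counts were 144, 129, 13, 0, 3 and 198 in KO clones, against 2, 3, 269, 87, 164 and 147 in WT clones, in the same order of clones. KO clones 4J and 4K and WT clones 1A and 1B were at or under the 3-count limit, while 3 KO and 4 WT clones had 87 counts or more. Clones of 1 title number fell on both sides, as 4K with 3 counts (exact 95% Poisson interval 0.619 to 8.77) and 4L with 198 (171 to 228). The means were 4.13 CPM ± 4.41 in KO and 4.73 CPM ± 4.57 in WT clones (SD, n = 6 each), so the spread within each genotype was as large as the mean. The log2 fold change of -0.20 had an SE of 1.24, and its sign was positive in 4 of the 12 fits that left out 1 clone each. Within genotypes the SD of its log2 CPM was 2.84, rank 32 from the largest of 11819 tested genes, whose median was 0.15. Of 690 genes within 0.5 log2 units of its mean level, 99.0% had a smaller SD.

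Cox6b1, the common isoform, was steady by comparison. Its lowest, median and highest levels were 198.5, 210.6 and 223.0 CPM in KO clones, against 226.1, 238.0 and 243.8 CPM in WT clones, and the ranges did not overlap. The means were 210.3 CPM ± 10.2 in KO and 236.9 CPM ± 6.98 in WT clones, a log2 fold change of -0.17 (SE 0.04). In the clones lowest in Cox6b2, Cox6b1 was 223.0 CPM in KO clone 4J, the highest KO value, 205.3 CPM in KO clone 4K, and 240.5 and 232.4 CPM in WT clones 1A and 1B. The share of Cox6b2 in the pair, per exon length, ran from 0% to 2.86% in KO clones and from 0.0203% to 3.22% in WT clones. The summed level of the pair was 300.7 CPM per kb ± 15.4 in KO and 338.9 CPM per kb ± 10.2 in WT clones, without overlap. Both genes lie on chromosome 7, as do Cox6a2 and Cox7a1. Of the 2 nearest protein-coding genes on each side of Cox6b2, looked at after its values were seen, Kmt5c, a histone H4 lysine methyltransferase, was lower in KO clones (76.8 CPM ± 2.77 in KO and 90.6 CPM ± 3.63 in WT, log2 fold change -0.24, SE 0.04, edgeR adjusted p = 0.00247). Tmem150b had a log2 fold change of 0.23 (SE 0.14, edgeR adjusted p = 0.365), and Fam71e2 and Il11 were below the filter. Kmt5c did not share the split of Cox6b2 over clones, as its SD was small in each genotype. Its call between the genotypes was kept in all 12 fits that left out 1 clone each. It was lost with counts summed by title number (edgeR adjusted p = 0.0554).

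**Figure D2:**
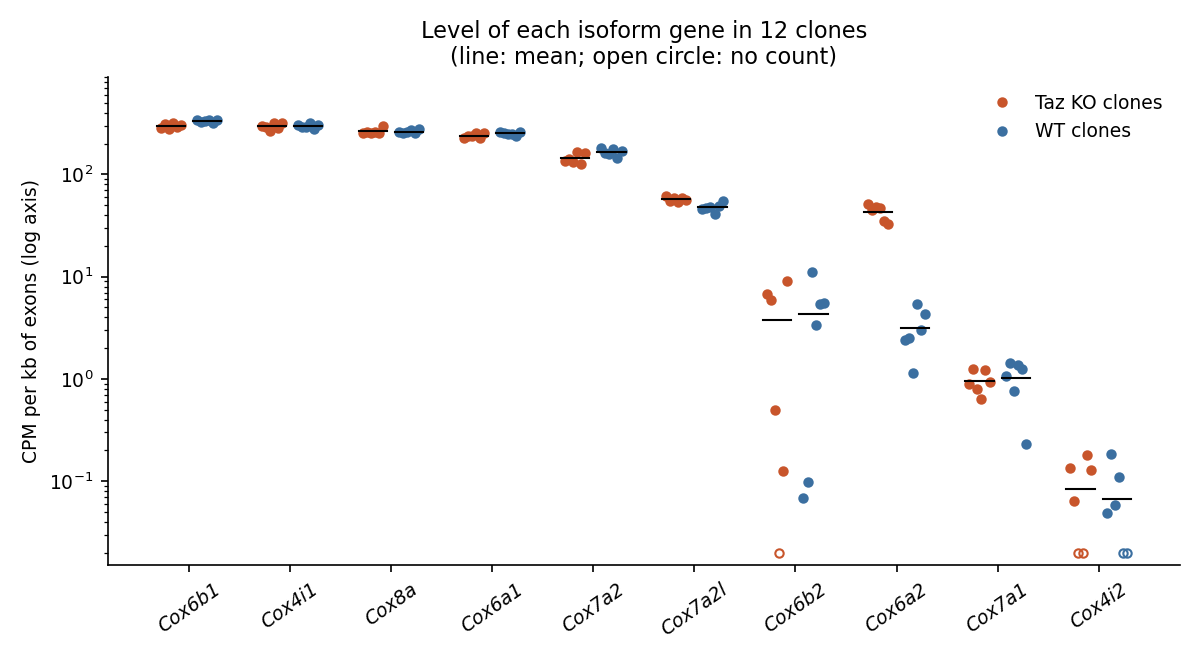
Level of the 10 genes in CPM per kb of exons (log axis), in KO clones left and WT clones right of each tick, with a line at the mean and an open circle for a clone with no count. Cox6a2 is the gene whose KO clones, at 32.6 to 51.9 CPM per kb, lie far above its WT clones, at 1.14 to 5.41, and Cox6b2 is spread over both groups.

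Cox7a1, the heart and skeletal muscle form of subunit 7a, stayed near the detection limit in both genotypes. Its counts ran from 8 to 14 in KO clones, against 3 to 21 in WT clones, with WT clone 2F the lowest. The means were 0.510 CPM ± 0.128 in KO and 0.546 CPM ± 0.243 in WT clones, and the log2 fold change was -0.11 (SE 0.35). It made up 0.668% ± 0.206 of the pair with Cox7a2 in KO and 0.619% ± 0.282 in WT clones. The muscle form of subunit 7a thus stayed a small part of its pair in both groups, and at counts this low a small difference was not detectable.

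Cox7a2, the common form of subunit 7a, had lowest, median and highest levels of 120.6, 131.3 and 154.8 CPM in KO clones, against 135.3, 156.3 and 173.0 CPM in WT clones. The groups overlap, since KO clones 4J and 4L, at 154.8 and 153.6 CPM, were as high as the middle of the WT clones. The log2 fold change was -0.19 (SE 0.08), and no call was made under any of the 16 alternatives. Cox7a2l, also named SCAFI, is the related protein that ties complex IV to complex III in supercomplexes. C57BL/6 mice are known to carry a shortened allele of it, and counts per gene do not show the allele. It had lowest, median and highest levels of 78.9, 85.5 and 91.1 CPM in KO clones, against 61.0, 70.0 and 81.7 CPM in WT clones. The means were 84.9 CPM ± 4.58 in KO and 70.5 CPM ± 6.79 in WT clones, a log2 fold change of 0.27 (SE 0.06), with overlap through WT clone 2F. The call of Cox7a2l was lost without 1A, 1B, 3G or 3I. Of its 50-base stretches, 13.8% also occur in the pseudogene Gm6969, so part of its reads may have gone uncounted. Per exon length, Cox7a2l made up 28.6% ± 3.00 of its sum with Cox7a2 in KO and 22.5% ± 2.57 in WT clones. Those shares ran from 24.6% to 31.6% in KO and from 19.04% to 25.5% in WT clones and overlap.

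Cox4i1, the common form of the largest nuclear-encoded subunit, was 459.0 CPM ± 30.4 in KO and 461.6 CPM ± 22.5 in WT clones, a log2 fold change of -0.01 (SE 0.05). Cox4i2, its lung and low-oxygen form, had 0 to 3 counts in KO clones and 0 to 4 in WT clones, and KO clones 3I and 4J and WT clones 2E and 2F had none. No fold is given for it, as 11 of the 12 clones were at or under the 3-count limit. The exception was WT clone 1B with 4 counts. Cox8a, the common form of subunit 8, was 162.9 CPM ± 10.8 in KO and 161.9 CPM ± 5.95 in WT clones, a log2 fold change of 0.01 (SE 0.04). KO clone 4L, at 184.5 CPM, was the highest of all clones, and the other KO clones lay between 155.9 and 162.3 CPM. Outside the 10 genes, the muscle form Cox8b, the testis form Cox8c and Cox7b2 had no more than 1 count in any clone.

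**Figure D3:**
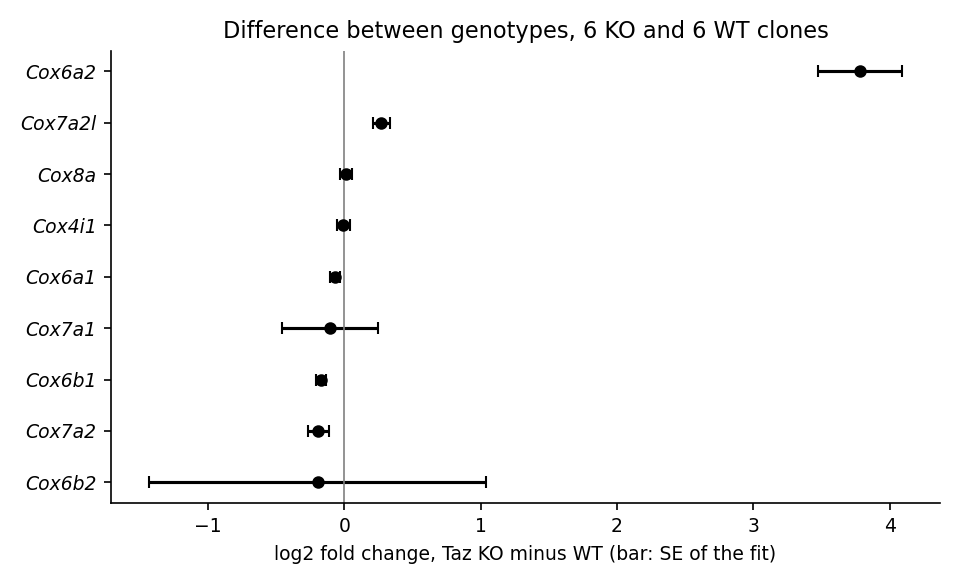
Log2 fold change of the 9 tested genes, KO minus WT (horizontal axis), with the standard error of the edgeR fit as bars. Cox6a2 stands at 3.78, the other 8 lie between -0.20 and 0.27, and Cox6b2 has the widest bar, with an SE of 1.24.

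Set side by side, 3 of the 9 tested genes passed an adjusted p under 0.05 between the genotypes, Cox6a2 and Cox7a2l higher and Cox6b1 lower in KO clones. Over all 11819 tested genes, 7.94% were called, 3.99% higher and 3.94% lower, and nothing is read from the members' count because the genes were chosen with this contrast. Groups did not overlap in 2 of the 9, Cox6a2 and Cox6b1, and in 5.38% of all tested genes. The median log2 fold change was -0.07 over the 9 genes and -0.01 over all tested genes. Without clone 3G, 1 member was called higher and 1 lower. The within-genotype SD of log2 CPM was 0.06 to 0.14 for the 6 abundant genes Cox4i1, Cox6a1, Cox6b1, Cox7a2, Cox7a2l and Cox8a. For the low-count tissue forms it was 0.56 for Cox6a2, 0.58 for Cox7a1 and 2.84 for Cox6b2.

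The order of levels per kb of exons began with Cox6b1, Cox4i1, Cox8a, Cox6a1, Cox7a2 and Cox7a2l in both genotypes. By this length Cox6b1 and Cox4i1 could not be told apart in KO clones. They stood at 297.0 and 296.2 CPM per kb, each being the higher one in 3 clones. The exons of Cox4i1 join to 1550 bases, but its longest transcript has 765, against 708 and 618 bases for Cox6b1. By longest transcript Cox4i1 would thus stand higher beside Cox6b1, and the order was not computed with that length. Cox8a and Cox6a1 overlapped in range in both genotypes, and Cox6a1 was above Cox7a2 without overlap in both. Cox6a2 came next in KO clones, at 43.2 CPM per kb ± 7.63, below Cox7a2l at 57.4 CPM per kb ± 3.10 without overlap. In WT clones Cox6a2 stood at 3.13 CPM per kb ± 1.51, within the range of Cox6b2, and above Cox7a1 in each of the 6 clones. Clone to clone, some of the common forms had their highest values together. KO clones 4J and 4L held the top places for Cox4i1, Cox6a1, Cox7a2 and Cox8a, and 4J had the lowest Cox7a2l. Among WT clones, 2D had the highest Cox4i1 and Cox6b1 and the lowest Cox7a2l, and 2E the lowest values of Cox4i1, Cox6a1, Cox6b1, Cox7a2 and Cox8a.

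The common nuclear subunits that have no tissue isoform in this set, Cox5a, Cox5b, Cox6c, Cox7b, Cox7c and Ndufa4, were all tested and 0 were called, with a median log2 fold change of -0.04. Ndufa4, now counted among the subunits of complex IV, was 285.4 CPM ± 17.7 in KO and 303.6 CPM ± 31.7 in WT clones. Cox7b was 146.4 CPM ± 11.0 in KO and 164.7 CPM ± 7.93 in WT clones (log2 fold change -0.17, SE 0.05, edgeR adjusted p = 0.0631). Of 26 tested assembly, metallation and translation factors of the complex, 1 was called, Cox19, a copper-route protein, lower at 24.6 CPM ± 0.777 in KO and 28.7 CPM ± 2.35 in WT clones (log2 fold change -0.22, SE 0.06, edgeR adjusted p = 0.0368). In fits with 1 clone left out, that call was kept in 2 of 12, without 1C and without 2E. Coa5 and Lrpprc, the most abundant of those not called, had log2 fold changes of 0.14 (SE 0.05) and 0.09 (SE 0.06). Sco2 and Cox20 share 88.2% and 84.8% of their 50-base stretches with other genes and had next to no counts, so nothing is said of them. Of 4 tested genes in a list of cytochrome c and cofactor genes (Cycs, Hccs, Slc25a3 and Mtch2), 1 was called. It was Cycs, somatic cytochrome c, at 3.53 CPM ± 0.260 in KO and 4.56 CPM ± 0.498 in WT clones (log2 fold change -0.37, SE 0.10, edgeR adjusted p = 0.0492). The call was kept in 1 of 12 such fits, without 2E, and was lost with median-ratio size factors, and 26.1% of its 50-base stretches occur elsewhere. The shares called in these lists stand beside 7.94% of all tested genes.

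Of 17 tested regulators named in the literature for these isoform genes, 1 was called, beside 7.94% of all tested genes. It was Gabpb1, a subunit of the ETS factor GABP, higher at 97.7 CPM ± 5.65 in KO and 83.5 CPM ± 4.19 in WT clones (log2 fold change 0.23, SE 0.05, edgeR adjusted p = 0.0124), without overlap. Sp1, Yy1 and Lonp1 had log2 fold changes of 0.01, 0.01 and 0.00. The muscle regulators Myod1 and Myog and the coactivator Ppargc1a were at or near 0 counts in every clone. Mef2c, a factor of muscle and myeloid cells picked out after its values were seen, had 13.7 CPM ± 10.8 in KO and 37.0 CPM ± 13.7 in WT clones (log2 fold change -1.43, SE 0.52, edgeR adjusted p = 0.111) and was called by DESeq2 alone among the alternatives.

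Most muscle markers were too low to be tested. Of 43 muscle markers, 8 were tested, 0 were called higher and 1 was called lower, beside 3.99% and 3.94% of all tested genes, and 8 were at 0 in every clone, namely Ckmt2, Myh2, Myl1, Nppb, Tnnc2, Sln, Hspb7 and Smpx. Their summed level was 13.96 to 37.2 CPM in KO clones and 15.6 to 44.7 CPM in WT clones. The marker called lower was Tnni1, a slow troponin I, at 0.460 CPM ± 0.447 in KO and 8.51 CPM ± 10.1 in WT clones (log2 fold change -4.18, SE 1.05, edgeR adjusted p = 0.0325). It was high in WT clones 1A and 1B, at 22.4 and 20.4 CPM, and 0.332 to 5.60 CPM in the other WT clones, and the call was lost without 1A, 1B, 3G, 3H, 3I, 4K or 4L. In the clone with most RNA of the cardiac and skeletal actins, 3G, Acta1 and Actc1 had 5.78 and 2.73 CPM, against at most 0.102 and 0 CPM in the other KO clones. Cox6a2 was 35.3 CPM in 3G and 22.2 to 32.5 CPM in the other KO clones, and its log2 fold change was 3.72 without 3G. Of 14 other mitochondrial and energy genes listed for muscle, 6 were tested and 0 were called. The list is not limited to muscle isoforms. It holds Idh3a, at 196.8 CPM in KO and 204.1 CPM in WT clones, and Hk2, at 139.7 and 127.6 CPM. Among the 6 was Slc25a4, the muscle and heart adenine nucleotide carrier, at 165.9 CPM ± 2.74 in KO and 188.5 CPM ± 18.8 in WT clones (log2 fold change -0.18, SE 0.06, edgeR adjusted p = 0.0663).

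The genes whose values over the 12 clones ran closest to those of Cox6a2, by the root mean square difference of log2 CPM centred on each gene's mean, were Trib3 (0.56), Slc6a9 (0.70), Extl1 (0.71), Bcat1 (0.75) and Vldlr (0.77). Trib3, a pseudokinase of the stress response, was 60.4 CPM ± 10.2 in KO and 7.74 CPM ± 8.02 in WT clones. Slc6a9, a glycine transporter, was 21.3 CPM ± 3.88 in KO and 3.88 CPM ± 2.93 in WT clones. Bcat1, the cytosolic branched-chain aminotransferase, was 88.1 CPM ± 15.9 in KO and 7.12 CPM ± 8.90 in WT clones. Extl1, a glycosyltransferase of the exostosin family, was 18.1 CPM ± 6.50 in KO and 0.781 CPM ± 0.614 in WT clones. Vldlr, a lipoprotein receptor, was 73.2 CPM ± 14.8 in KO and 9.34 CPM ± 6.25 in WT clones. This ranking is set mainly by the gap between the genotypes. The WT clones entered the ranking too, so likeness among them is partly built in. Within WT clones, 2D was the highest for Cox6a2, Trib3 and Slc6a9, but 1B for Extl1, 2F for Bcat1 and 2E for Vldlr. Clone 1C was the lowest for Cox6a2, Trib3, Slc6a9, Extl1 and Vldlr, and 2E for Bcat1.

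**Figure D4:**
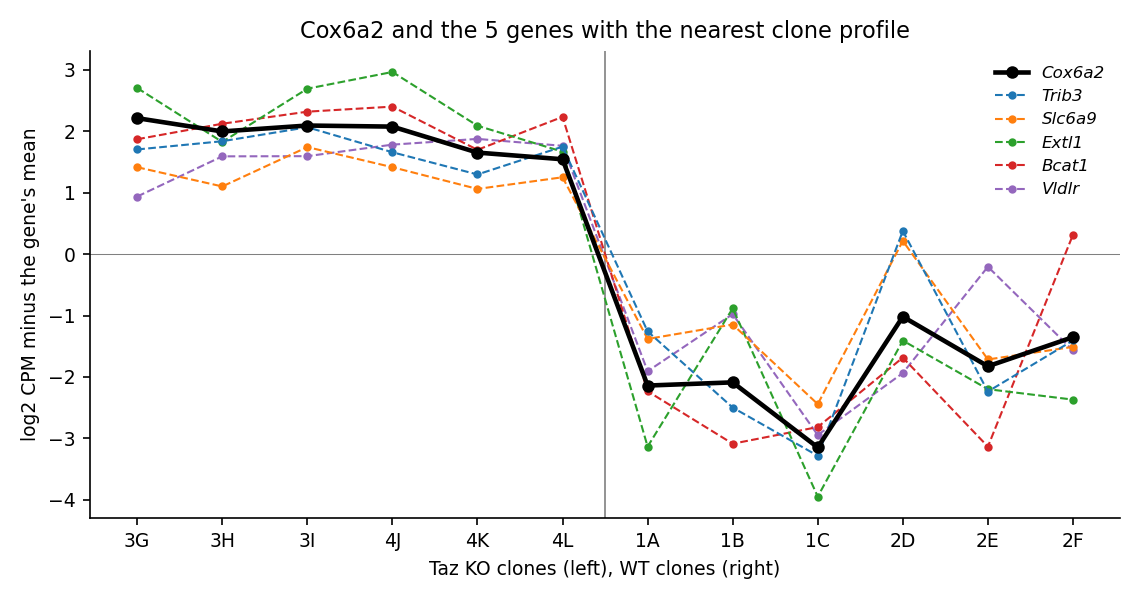
Log2 CPM of Cox6a2 and its 5 nearest genes minus each gene's mean over 12 clones (vertical axis), with KO clones left and WT clones right. Each of the 6 genes is higher in each KO clone than in any WT clone, and clone 1C is the lowest for 5 of them.

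Trib3 and Vldlr also belong to a list of targets of ATF4 and CHOP, the transcription factors of the integrated stress response, of which 26 of 31 tested genes were called higher and 0 lower, against 3.99% and 3.94% of all tested genes. Their median log2 fold change was 0.75. Ddit3, which encodes CHOP, was 24.7 CPM ± 3.16 in KO and 9.67 CPM ± 1.97 in WT clones (log2 fold change 1.35, SE 0.13, edgeR adjusted p = 0.000336). Of 18 tested p53 targets, 10 were called higher and 0 lower. Since Cox6a2 and these lists differ between the same groups, their relation was looked at within each genotype. Pearson's r of Cox6a2 with the mean log2 CPM of the ATF4-CHOP targets was 0.47 in KO (exact permutation p = 0.374; Spearman's rho 0.26, p = 0.658) and 0.75 in WT clones (exact permutation p = 0.0819; rho 0.60, p = 0.242), with n = 6 each. With the 2 clones farthest from the median score left out, r was -0.31 in KO (without 3I and 4K) and -0.23 in WT clones (without 1C and 2D), so the sign changed without those clones. With 1 clone left out at a time, r stayed positive, from 0.07 (without 4K) to 0.75 in KO and from 0.56 to 0.84 in WT clones. For the p53 targets r was -0.09 in KO (exact permutation p = 0.868; rho -0.09, p = 0.919) and -0.21 in WT clones (exact permutation p = 0.657; rho -0.20, p = 0.714). Without the 2 farthest clones r was -0.71 in KO and -0.07 in WT. The 2 left out in WT, 1A and 2D, had the lowest p53 scores there. The p53 score includes Perp, at 0.0766 CPM in 1A and 17.3 CPM in 2D, against 230.8 to 418.8 CPM in the other WT clones. The relation without Perp was not tested. Adjusted over the 4 relations, the p-values of r ran from 0.328 to 0.868, and the smallest p that 6 clones allow is 0.00139. All 4 relations failed the test at this number of clones.

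**Figure D5:**
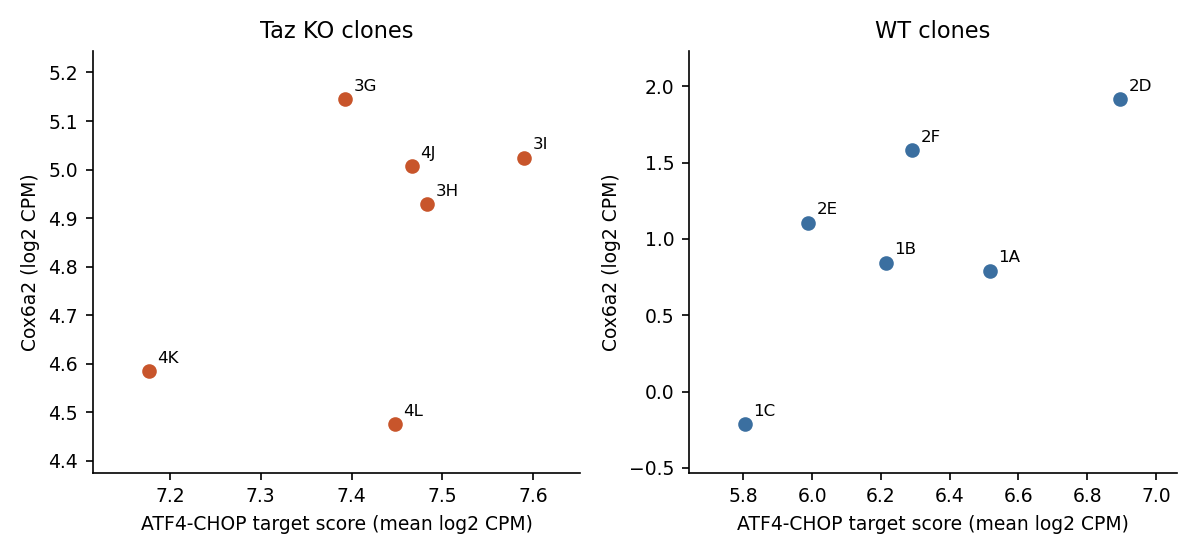
Cox6a2 (log2 CPM, vertical axes) against the mean log2 CPM of the ATF4-CHOP targets (horizontal axes) in the 6 KO clones, left, and the 6 WT clones, right, on different scales. In WT clones 1C is lowest and 2D highest for both measures, and over the other 4 clones r is -0.23.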

How the data were processed

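Bulk RNA sequencing was done on 12 clones, 6 per genotype. The deposited files hold raw counts of reads per Ensembl gene, one file per clone. The submitters' processing notes name STAR, HTSeq and edgeR and the build mm9; versions are not given in the sources used here. Per the file names, reads were counted without strand. The 5 HTSeq totals that end each file were dropped. Of all records, 43.4% to 44.9% in KO and 42.8% to 43.8% in WT clones were reads aligned to more than 1 place, so reads shared by near-identical genes are largely missing.

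The counts were fitted with edgeR 4.0.16 in R 4.3.3 (quasi-likelihood F-test, TMM, filterByExpr by genotype, all 12 clones, Benjamini-Hochberg adjustment over 11819 genes, called at an adjusted p under 0.05). The SE is the absolute log2 fold change over the square root of F. The same test set title numbers against each other inside a genotype. CPM values use TMM-scaled libraries, with a prior count of 2 where logged. Levels per kb and shares use the union of exons. Alternatives were DESeq2 1.42.0, its median-ratio size factors, no filter, each clone left out, counts summed by title number, and other lengths. The fits were tested on simulated data. No library pair of a genotype agreed within sampling noise. Counting intervals and the limit of 3 counts cover counting error only, since reads copied by PCR are not separate molecules.

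Symbols, lengths and transcripts came from GENCODE release M21, which matched 32860 of 37583 identifiers and is on a newer build, so gene coordinates are left out. Promoters came from RefSeq on GRCm38.p6, with entries for 7 of the 10 genes. The 10 genes and the gene lists were chosen with earlier results of these data known. Genes named beside them follow a rule: up to 4 called list members per direction by smallest adjusted p and up to 3 uncalled ones by highest level, the 4 protein-coding neighbours on each side of Cox6a2, and the 5 genes nearest in clone profile among genes whose log2 CPM averaged 0 or more. Genes named outside it were chosen after their values were seen: the muscle and regulator genes at or near 0, Mef2c, Acta1, Actc1, Sco2, Cox20 and the neighbours of Cox6b2.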

Additional observations from a re-analysis of the deposited data

Results flagged for a closer look

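In each group of 6 clones, the highest and the lowest value were set against Dixon's 95% critical value for the gap to the nearest clone over the group's range. Of 94 groups looked at, 16 had such a clone, where chance gives about 1 in 20 for independent, normally distributed values. These groups are partly dependent, and some genes among them were chosen after their values were seen, so that rate is only a guide.

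Among the isoform genes, Cox8a in KO clone 4L was apart at 184.5 CPM, against 155.9 to 162.3 CPM in the other KO clones. No clone of either genotype was apart for Cox6a2 or Cox6b2.

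KO clone 3G was apart for muscle markers, which summed to 37.2 CPM, and for hepatocyte markers, which summed to 169.6 CPM. In the same clone Acta1 was 5.78 CPM, Actc1 2.73 CPM and Ldhb 1.26 CPM, against at most 0.102, 0 and 0.0469 CPM in the other KO clones, and Vldlr was low at 45.6 CPM, against 71.8 to 87.4 CPM. WT clone 1A was apart for erythroid markers, at 38.6 CPM against 3.42 to 12.3 CPM, and for Actc1 through its single count (0.0383 CPM).

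Trib3 and Slc6a9, whose clone profiles lie near that of Cox6a2, were apart in WT clone 2D, at 23.5 and 9.66 CPM, against 1.78 to 7.50 and 1.46 to 3.71 CPM in the other WT clones. Bcat1 was apart in WT clone 2F at 25.02 CPM, against 2.21 to 6.19 CPM. Of the genes beside Cox6a2, Itgax was apart in KO clone 4K at 13.3 CPM and 9130023H24Rik in WT clone 2F at 6.81 CPM. Tnni1 was apart in KO clone 4J at 1.36 CPM, and the p53 target score in KO clone 3H, at a mean log2 CPM of 4.89 against 5.10 to 5.20.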

How the results depend on the processing

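No paired analysis was possible because KO and WT clones share no title number. Cox6a2 was called under all 16 alternatives, with log2 fold changes of 3.62 to 4.01 when 1 clone was left out. Cox6b1 was called under 15, all but the counts summed by title number. Both genes were chosen with earlier results of this contrast known. Their calls therefore describe dependence on the processing only and add no test of the difference. With median-ratio size factors the log2 fold changes of all genes shifted by a median of 0.00, and 0 of the cytochrome c and cofactor genes were called lower.

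Over all genes, DESeq2 called 801 higher and 830 lower, no filter 271 and 280, and the summed counts 158 and 116. The number of isoform genes called higher was 1 without a filter and 1 with summed counts, where 0 were lower. DESeq2 called 1 common subunit lower, 1 assembly factor higher and 2 lower, 2 regulators lower and 1 energy gene lower. Without a filter, and with summed counts, 0 assembly factors and 0 cofactor genes were lower. With summed counts 0 regulators were higher, 0 muscle markers lower and 5 p53 targets higher. Between title numbers DESeq2 called 1 gene higher and 2 lower in KO clones, and 3 higher and 1 lower in WT clones. With counts not divided by length, the share of Cox7a1 in KO was 0.380%, and that of Cox7a2l was 38.5% in KO and 31.2% in WT clones.

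With 1 clone left out, 294 (without 3I) to 558 genes were called higher and 272 (without 3G) to 535 lower. Isoform genes called higher were 1 to 2, and regulators 1 to 2. Common subunits, assembly factors, cofactor genes, muscle markers and energy genes called lower were 0 to 1 each, and genes lower in KO number 4 than 3 were 0 to 6 (6 without 4J). The r of Cox6a2 with the p53 targets ran from -0.31 to 0.10 in KO and from -0.58 to 0.15 in WT clones, alternatives added after seeing the data. Where a call changed, the cause was not tested. Counts of 0 to 4 limit what can be said of Cox4i2, and 3 to 21 of Cox7a1.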
